A study of Homo sapiens with 15 samples.

Results

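The 10 genes described here make the machinery that prepares and loads peptides for MHC class I molecules. They are B2M, TAP1, TAP2, TAPBP, PSMB8, PSMB9, PSMB10, NLRC5, ERAP1 and ERAP2, found in the tables by gene symbol. That rule uses no measured value, but the 10 genes were chosen with earlier results of these data known. All 10 were listed among the 16382 genes of the table of MRC5 cells and among the 16076 genes of the table of H196 cells, and all 10 passed the filter on low counts in every comparison. The lines were MRC5, human lung fibroblasts, and 2 small cell lung cancer (SCLC) lines, the neuroendocrine (NE) H69 and the non-NE H196. Sequenced MRC5 cells came from monoculture (MRC5_Mo), from co-culture with H69 (MRC5_CoH69) or from co-culture with H196 (MRC5_CoH196), and sequenced H196 cells from monoculture (H196_Mo) or co-culture with MRC5 (H196_Co). Partner cells were kept apart by a transwell insert, and the paper names no added agent for the sequenced cells. Culture lasted the same number of days in all 5 groups. The paper gives RPMI as the medium of the SCLC lines and MEM as that of MRC5, both with serum and antibiotics. It does not state the medium of the co-cultures, so any change of medium cannot be told apart from the partner cells. RNA-seq was performed on 3 libraries of each of the 5 groups, 15 in all. Each cell type is represented by a single commercial line. The labels do not say that libraries of a group came from separate cultures, so p-values here measure the spread between these libraries, which may be technical.

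MHC class I molecules show fragments of a cell's own proteins to CD8 T cells. The proteasome cuts proteins into peptides, and in cells exposed to interferon the catalytic subunits PSMB8, PSMB9 and PSMB10 take the place of PSMB5, PSMB6 and PSMB7 to form the immunoproteasome. The TAP1/TAP2 transporter carries peptides into the endoplasmic reticulum, ERAP1 and ERAP2 trim them, tapasin (TAPBP) helps to load them, and β2-microglobulin (B2M) is the light chain that every class I heavy chain needs. NLRC5 is a transcriptional coactivator of class I genes. Many tumors, SCLC among them, are known for low levels of this machinery, and interferon is its best known inducer.

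Interferon acts on many of these genes through the interferon-stimulated response element, a promoter sequence bound by IRF and STAT factors. Its core was searched as GAAANNGAAA on both strands of RefSeq promoter windows (GRCh38.p14) that run from 250 bases before to 50 bases after a start. Of the 10 genes, 9 could be matched to a window. 8 of the 9 held the core in at least 1 window, against 4.38% of 27305 genes (3.57% of 35116 windows). In B2M, TAP1 and TAPBP, 2 matches overlapped. The gene without a match was PSMB9, which is transcribed away from TAP1 with its start 488 bases from the TAP1 start. Both upstream stretches are shown whole, because these genes share the region between them and were the 2 of the 10 that passed the test with H69. The TAP1 stretch lies on the minus strand at chr6:32853705-32853954 and the PSMB9 stretch on the plus strand at chr6:32853942-32854191, with the core in capitals.
TAP1: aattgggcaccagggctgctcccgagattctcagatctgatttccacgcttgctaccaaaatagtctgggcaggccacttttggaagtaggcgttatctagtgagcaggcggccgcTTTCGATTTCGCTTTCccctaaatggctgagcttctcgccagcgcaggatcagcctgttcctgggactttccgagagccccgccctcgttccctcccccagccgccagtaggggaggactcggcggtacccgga
PSMB9: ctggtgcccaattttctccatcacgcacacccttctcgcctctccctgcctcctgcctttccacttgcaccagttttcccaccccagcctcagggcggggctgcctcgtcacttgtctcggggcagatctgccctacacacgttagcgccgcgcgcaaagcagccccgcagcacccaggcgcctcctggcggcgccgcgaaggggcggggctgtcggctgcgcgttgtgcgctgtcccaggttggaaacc

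The stretches around the core in 5 other genes are shown to compare its spacing and surroundings. They come from B2M (chr15:44711348-44711413, plus strand), TAP2 (chr6:32838763-32838822, minus strand), TAPBP (chr6:33314058-33314123, minus strand), PSMB10 (chr16:67936837-67936896, minus strand) and ERAP2 (chr5:96876445-96876504, plus strand).
B2M: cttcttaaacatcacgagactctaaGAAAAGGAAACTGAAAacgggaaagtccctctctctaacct
TAP2: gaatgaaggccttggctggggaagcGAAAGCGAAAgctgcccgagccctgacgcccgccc
TAPBP: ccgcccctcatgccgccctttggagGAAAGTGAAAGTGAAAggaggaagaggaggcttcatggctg
PSMB10: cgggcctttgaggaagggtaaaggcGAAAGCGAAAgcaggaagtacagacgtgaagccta
ERAP2: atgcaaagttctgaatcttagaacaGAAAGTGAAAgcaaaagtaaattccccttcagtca
The same 10 bases were found in TAP2 and PSMB10, and on the opposite strand in TAP1 and PSMB8. TAPBP and ERAP2 shared another version, which ERAP1 held on the opposite strand. In PSMB8 and ERAP1 the core lay at the start itself, from base -4 to 6 and from base 3 to 12, on the opposite strand. The interferon-gamma activated site, searched as TTCNNNGAA, was found in windows of 2 of the 9 genes (TAP1 and PSMB8), against 9.38% of all genes. The hypoxia response element core ACGTG was found in PSMB9 and PSMB10, 2 of the 9, against 24.9% of all genes. A match describes letters only, and no match says only that these letters are not in the window.

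**Figure D1:**
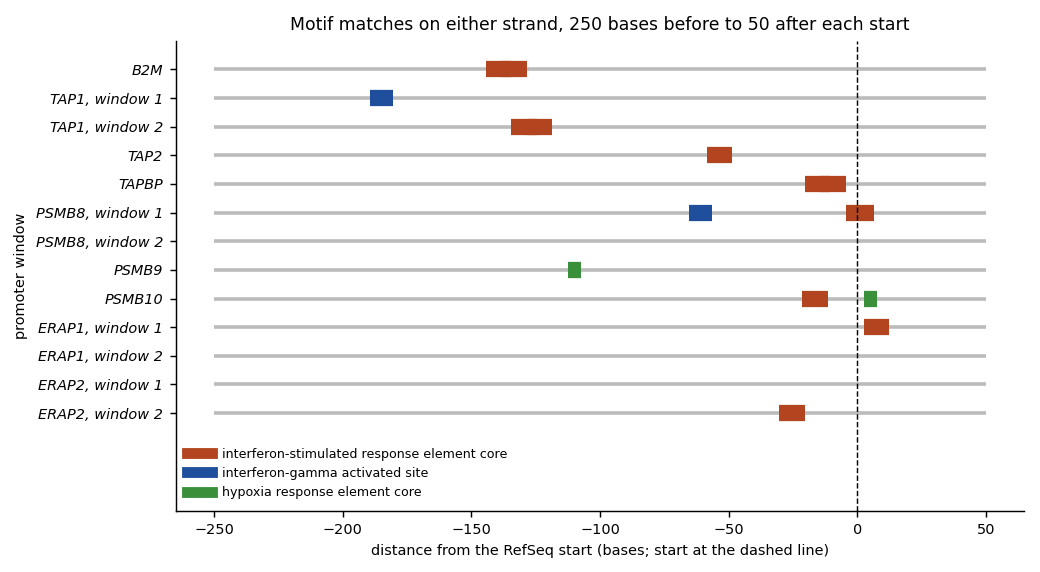
Motif matches in the 13 RefSeq promoter windows of 9 of the genes. The horizontal axis is the distance from the start in bases, each grey line is a window, and colored blocks are matches on either strand. Matches of the interferon-stimulated response element core lie within 144 bases before the start in B2M, TAP1, TAP2, TAPBP, PSMB8 (across the start), PSMB10 and ERAP2, and just after the start in ERAP1.

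Library totals ran from 16073584 to 19170550 counts. Levels are given as FPKM, a level scaled by gene length and by library size, as deposited for each library. Differences are log2 fold changes of the counts from edgeR's quasi-likelihood test with Benjamini-Hochberg adjusted p. A gene passed the test at an adjusted p under 0.05, and was called a DEG if its absolute log2 fold change was also above 0.58. The edgeR scaling factors (TMM) were 0.916 to 0.941 in MRC5_CoH196 and 1.045 to 1.046 in MRC5_Mo libraries. They raise a fold change in MRC5_CoH196 above the ratio of the FPKM values. Other differences between counts and FPKM add to this for some genes. MR1, a class I-like gene, had 238 to 255 counts in MRC5_Mo and 279 to 320 in MRC5_CoH196 libraries. Its mean FPKM fell from 4.08 to 2.96, and the part of gene length in this was not tested. Over all genes the median log2 fold change with H196 was -0.003 with TMM scaling and -0.13 on log2(FPKM + 1). On the latter scale 3299 genes passed as higher and 6178 as lower, against 4765 and 4757 with edgeR.

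In MRC5_CoH196 cells, the light chain rose while most of the peptide supply and loading genes fell. 7 of the 10 genes passed the test against MRC5_Mo, when 74.3% of the 12819 genes tested did. B2M was the gene that rose (37.2% of all genes passed as higher), and TAP2, NLRC5, PSMB10, ERAP2, PSMB8 and ERAP1 fell (37.1% of all genes). TAP2, NLRC5, PSMB10 and ERAP2 were DEGs, 4 of 10 where 31.9% of all genes were DEGs and 14.7% lower DEGs. This count of 4 was 2 without MRC5_Mo replicate 1. It was 3 with DESeq2, on log2(FPKM + 1), or without MRC5_Mo replicate 3 or MRC5_CoH196 replicate 2 or 3. The median log2 fold change of the 10 genes was -0.28. On log2 CPM scaled by TMM, MRC5_CoH196 and MRC5_Mo libraries did not overlap for 9 of the 10 genes, TAP1 being the exception, and for 75.5% of all genes. B2M was higher without overlap (37.7% of all genes) and the other 8 were lower (37.9%). In these bulk samples, fewer cells that express a gene and less of its RNA per cell cannot be told apart.

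In MRC5_CoH69 cells, TAP1 and PSMB9 rose. They were the 2 of the 10 genes that passed the test against MRC5_Mo, when 6.7% of all genes passed and 3.78% as higher. No DEG was found among the 10 (0.554% of all genes were DEGs with edgeR) by edgeR or DESeq2. The libraries did not overlap for TAP1, TAPBP, PSMB9 and PSMB10, all higher in MRC5_CoH69, when 25.7% of all genes did not overlap and 13.6% did so as higher. The count of 2 rested on single libraries. It fell to 0 without MRC5_Mo replicate 3 or MRC5_CoH69 replicate 1, to 1 without replicate 2 of either group, and rose to 3 without MRC5_Mo replicate 1 or MRC5_CoH69 replicate 3. The median log2 fold change was 0.11 over the 10 genes and -3.49e-05 over all genes. Both co-cultures were compared with the same MRC5_Mo libraries.

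Between the co-cultures themselves, all 10 genes passed the test, when 72.3% of all genes did. B2M was higher in MRC5_CoH196 than in MRC5_CoH69 cells (35.7% of all genes passed as higher) and the other 9 were lower (36.6% of all genes). TAP2, PSMB9, PSMB10, NLRC5 and ERAP2 were lower DEGs, 5 of 10 against 13.1% of all genes. PSMB9 lay just beyond the limit, at -0.5807. This count of 5 was 4 with DESeq2 and on log2(FPKM + 1). It was also 4 without MRC5_CoH69 replicate 2 or MRC5_CoH196 replicate 2 or 3. The median log2 fold change was -0.48 over the 10 genes and -0.01 over all genes. The libraries did not overlap for any of the 10, and for 73.1% of all genes, 35.9% as higher (B2M) and 37.2% as lower (the other 9).

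**Figure D2:**
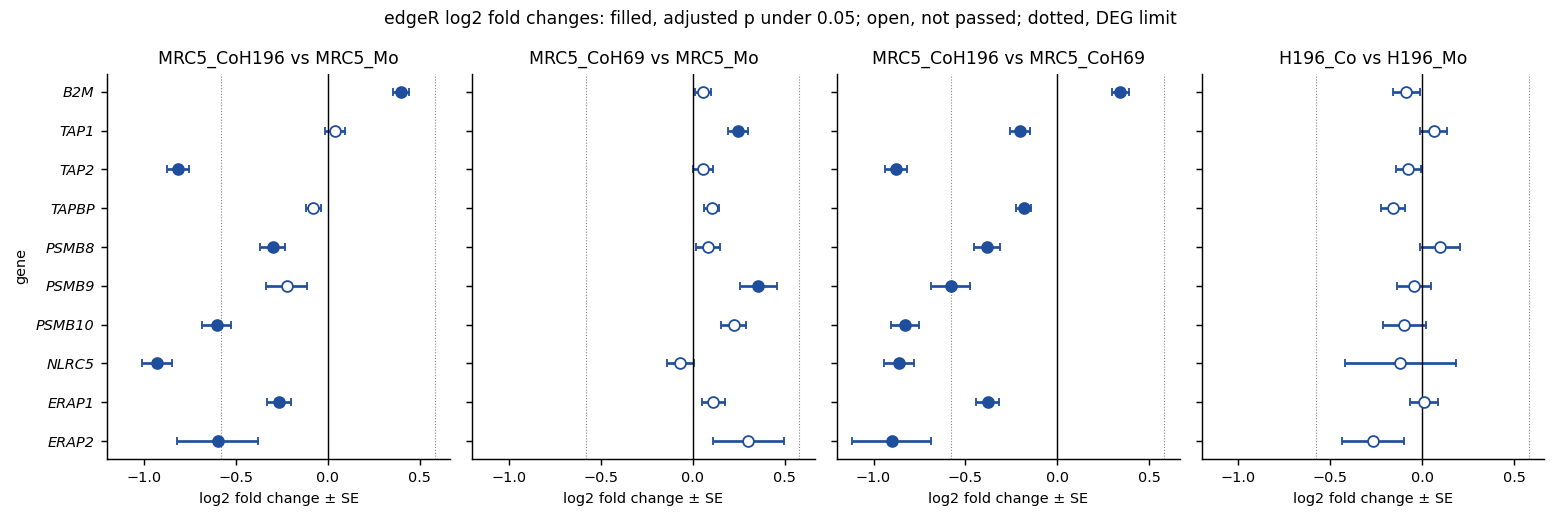
Log2 fold changes of the 10 genes in 4 comparisons, with standard errors as bars. Filled points passed the test and dotted lines mark the DEG limit of 0.58. With H196, B2M sits right of 0 at 0.40 and TAP2 and NLRC5 lie beyond the limit on the left at -0.82 and -0.93, and in H196 cells all points are open.

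B2M had by far the highest level of the 10 genes. Its FPKM was 1262, 1210.4 and 1105 in MRC5_Mo, 1248, 1205 and 1270.1 in MRC5_CoH69, and 1379, 1450.3 and 1362 in MRC5_CoH196 libraries. Every MRC5_CoH196 library was above every other MRC5 library, while MRC5_Mo and MRC5_CoH69 libraries overlapped. The log2 fold change was 0.40 (SE 0.0447, adjusted p = 1.69e-08) with H196, which is 31.7% higher, 0.06 (adjusted p = 0.553) with H69, and 0.34 (adjusted p = 2.3e-07) between the co-cultures. In H196 cells B2M stood at 239, 218 and 245 FPKM in H196_Mo and 209.6, 224 and 190.1 in H196_Co libraries. These groups overlapped, and the change of -0.09 did not pass the test (adjusted p = 0.428).

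The subunits of the peptide transporter had different changes with H196. TAP1, which pairs with TAP2 to form the channel, had 23.1, 21.8 and 20.2 FPKM in MRC5_Mo, 26.7, 25.2 and 24.3 in MRC5_CoH69 and 19.8, 19.3 and 20.3 in MRC5_CoH196 libraries. MRC5_CoH69 libraries were all above the MRC5_Mo libraries, and MRC5_CoH196 libraries overlapped with MRC5_Mo. TAP1 rose with H69 by a log2 fold change of 0.24 (SE 0.0538, adjusted p = 0.00532), a call that was lost on log2(FPKM + 1) (limma, adjusted p = 0.0527). With H196 its log2 fold change was 0.04 (SE 0.0553, adjusted p = 0.536), and on log2(FPKM + 1) it was -0.13 (limma, adjusted p = 0.0503), so its direction depended on the scale.

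TAP2, the other subunit, had 15.2, 13.2 and 15.6 FPKM in MRC5_Mo, 14.9, 14.7 and 14.8 in MRC5_CoH69 and 6.66, 7.05 and 6.11 in MRC5_CoH196 libraries. The MRC5_CoH196 libraries stood apart at the low end, on 552 to 628 counts each against 1089 to 1260 in the other MRC5 libraries. TAP2 fell by 0.82 on the log2 scale with H196 (SE 0.0596, adjusted p = 5.79e-12), or by 43.2%, and by 0.88 against MRC5_CoH69 (adjusted p = 1.76e-12). On log2(FPKM + 1) the log2 fold change with H196 was -1.04. With H69 its log2 fold change was 0.06 (adjusted p = 0.617). The difference between the changes of TAP1 and TAP2 was not tested.

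Tapasin moved little. TAPBP had 48.5 to 50.2 FPKM in MRC5_Mo, 51.2 to 52.2 in MRC5_CoH69 and 39.3 to 42.6 in MRC5_CoH196 libraries. Its log2 fold change with H196 was -0.08 (SE 0.0414, adjusted p = 0.0873), which did not pass, whereas on log2(FPKM + 1) it was -0.25 (limma, adjusted p = 9.38e-05). Against MRC5_CoH69, TAPBP was lower in MRC5_CoH196 by 0.18 on the log2 scale with edgeR (adjusted p = 0.000345).

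The 3 immunoproteasome subunits were all lower in MRC5_CoH196 than in MRC5_CoH69 cells. PSMB8, the chymotrypsin-like subunit LMP7, had 41.7, 35.8 and 38.8 FPKM in MRC5_Mo, 41.1, 40.01 and 42.9 in MRC5_CoH69 and 27.5, 30.8 and 25.4 in MRC5_CoH196 libraries. MRC5_CoH196 libraries lay below the other groups, which overlapped with each other. PSMB8 fell with H196 (log2 fold change -0.30, SE 0.0693, adjusted p = 0.000414) and its log2 fold change with H69 was 0.08 (adjusted p = 0.545).

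PSMB9, the subunit LMP2, had 11.7, 9.84 and 11.2 FPKM in MRC5_Mo, 13.6, 14.9 and 13.3 in MRC5_CoH69 and 8.45, 8.2 and 8.21 in MRC5_CoH196 libraries. The 3 groups did not overlap, with MRC5_CoH69 highest and MRC5_CoH196 lowest. The rise with H69 passed the test (log2 fold change 0.36, SE 0.101, adjusted p = 0.0311), but it did not with DESeq2 (adjusted p = 0.114). The log2 fold change with H196 was -0.22 (SE 0.11, adjusted p = 0.068) with edgeR and -0.35 on log2(FPKM + 1), where it passed (limma, adjusted p = 0.000354), and that between the co-cultures was -0.58 (adjusted p = 2.74e-05).

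PSMB10, the subunit MECL-1 (gene on chromosome 16, 67934506 to 67936850 in GRCh38.p13), had 30.4, 27.9 and 28.4 FPKM in MRC5_Mo, 36.5, 32.9 and 31.9 in MRC5_CoH69 and 16.6, 16.6 and 17.4 in MRC5_CoH196 libraries. The 3 groups did not overlap and had the same order as for PSMB9. PSMB10 fell with H196 by 0.61 on the log2 scale (SE 0.0779, adjusted p = 1.59e-07), or by 34.3%. Its log2 fold change with H69 was 0.22 (SE 0.0698, adjusted p = 0.0541). Between the co-cultures the log2 fold change was -0.83 (adjusted p = 5.58e-10).

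**Figure D3:**
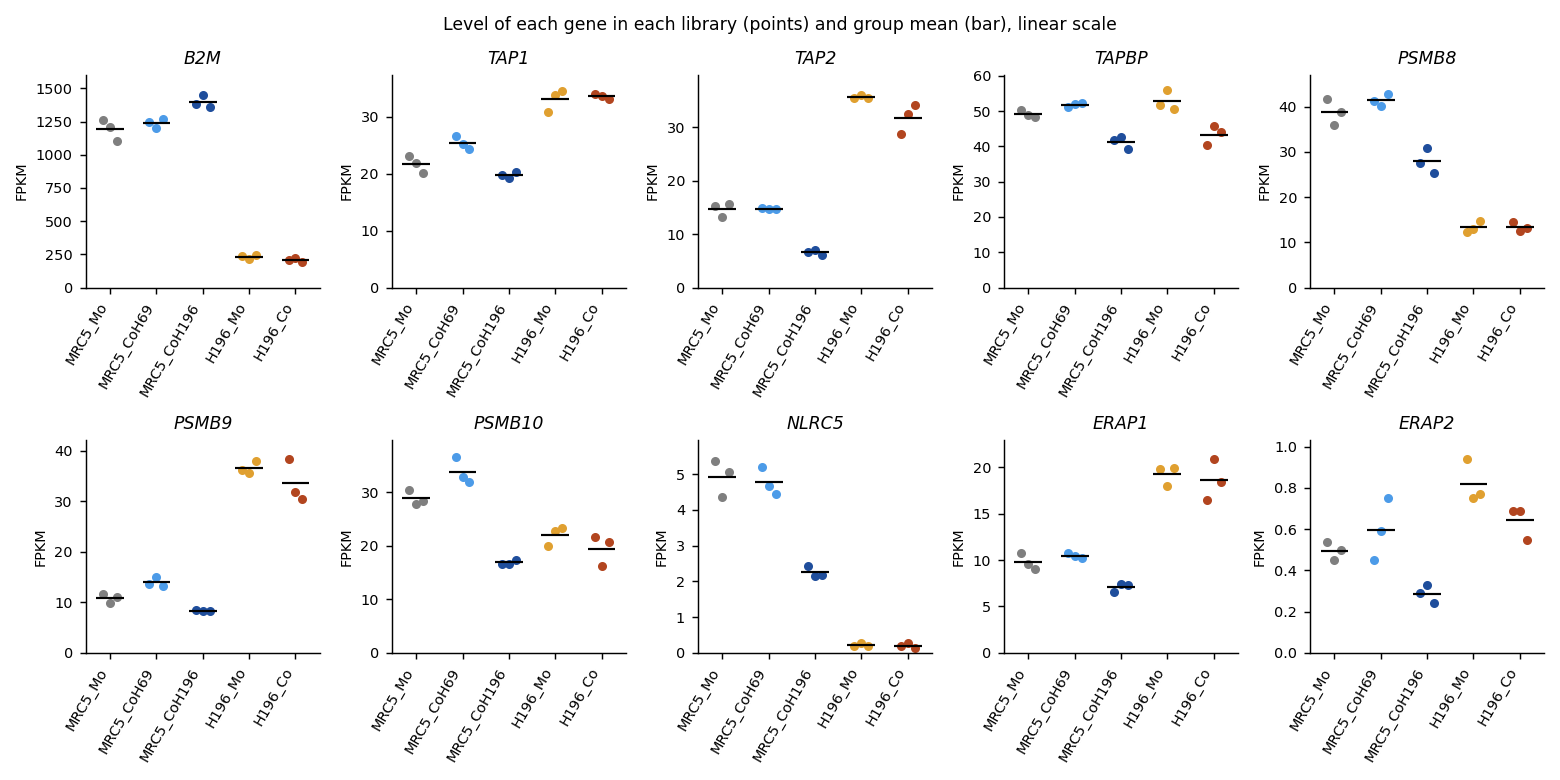
FPKM of the 10 genes in each of the 15 libraries, on linear axes from 0, with points for libraries and bars for group means. MRC5_CoH196 libraries lie below the other MRC5 groups in 8 panels, above them for B2M, and overlap with MRC5_Mo for TAP1, while NLRC5 lies near 0 in H196 cells with means of 0.227 and 0.207.

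Because an immunoproteasome subunit competes with the subunit it replaces, the ratio of their FPKM values was computed for each library. PSMB5, PSMB6 and PSMB7 also fell with H196, by 0.47, 0.74 and 0.44 on the log2 scale (edgeR, adjusted p = 2.03e-09, 6.09e-13 and 3.76e-09). The ratio of PSMB9 to PSMB6 was 0.0511, 0.0402 and 0.0434 in MRC5_Mo, 0.0558, 0.0634 and 0.0574 in MRC5_CoH69 and 0.0665, 0.0607 and 0.0639 in MRC5_CoH196 libraries. It was higher in every co-culture library than in every MRC5_Mo library, with log2 differences of 0.52 (H196) and 0.39 (H69). The level of PSMB9 was lowest in MRC5_CoH196 libraries, whereas its ratio to PSMB6 had the highest mean there.

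The ratio of PSMB10 to PSMB7 was 0.152, 0.137 and 0.135 in MRC5_Mo, 0.185, 0.161 and 0.164 in MRC5_CoH69 and 0.128, 0.127 and 0.125 in MRC5_CoH196 libraries. It was highest with H69 and lowest with H196, and no groups overlapped. The log2 differences were 0.26 with H69, -0.16 with H196 and -0.42 between the co-cultures. The ratio of PSMB8 to PSMB5 had means of 0.154, 0.168 and 0.173 in MRC5_Mo, MRC5_CoH69 and MRC5_CoH196, and these groups overlapped. Each of the 5 differences without overlap gave p = 0.1 in an exact two-sided permutation test, the smallest that 3 libraries against 3 allow, or 0.24 adjusted over the 12 ratios tested. None of the 12 could pass a threshold of 0.05 in this design.

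**Figure D4:**
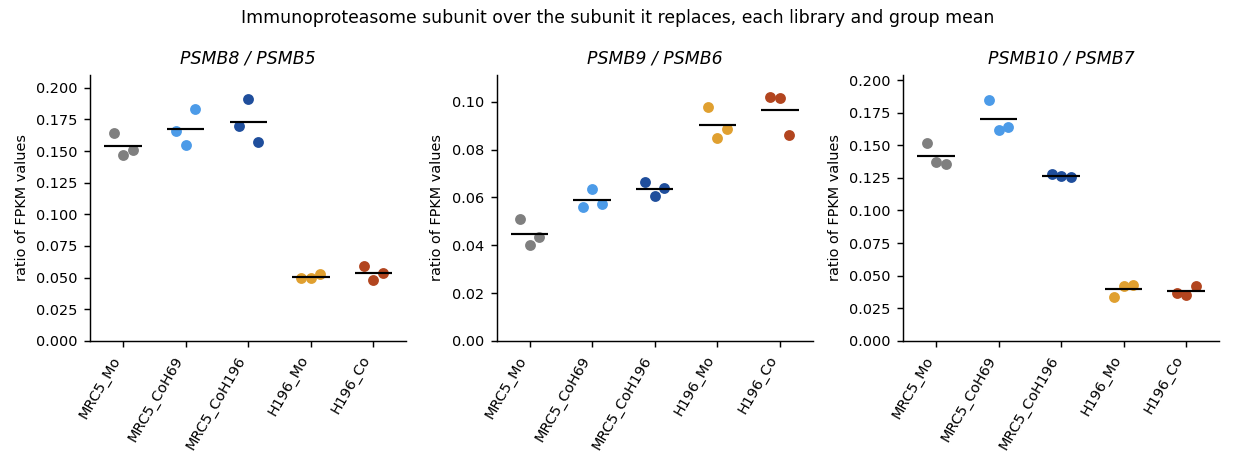
Ratio of the FPKM of each immunoproteasome subunit to that of the subunit it replaces, in each library (points) with group means (bars), on axes from 0. PSMB9/PSMB6 is above the MRC5_Mo libraries in both co-cultures, and PSMB10/PSMB7 is above them with H69 (mean 0.170) and below them with H196 (mean 0.127).

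The trimming peptidases were lower with H196. ERAP1, which shortens precursors to the length that class I molecules hold, had 9.02 to 10.8 FPKM in MRC5_Mo, 10.2 to 10.8 in MRC5_CoH69 and 6.56 to 7.38 in MRC5_CoH196 libraries. It fell by 0.27 on the log2 scale (SE 0.0647, adjusted p = 0.000677) with H196. ERAP2, a related peptidase with other sequence preferences, had 0.54, 0.45 and 0.5 FPKM in MRC5_Mo, 0.45, 0.59 and 0.75 in MRC5_CoH69 and 0.29, 0.33 and 0.24 in MRC5_CoH196 libraries. The MRC5_CoH196 libraries were the lowest, on 22 to 29 counts each. ERAP2 fell by 0.60 (SE 0.221, adjusted p = 0.0178) with H196, a call that was lost with DESeq2 (adjusted p = 0.0507), without MRC5_Mo replicate 1 (adjusted p = 0.0695) and without MRC5_CoH196 replicate 3 (adjusted p = 0.0822). In the tables ERAP1 spans 96760273 to 96935983 of chromosome 5 and ERAP2 lies inside it, from 96875939 to 96919784. The counting is not stated to use strand, so reads of these neighbors may not be told apart.

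NLRC5, the coactivator of class I genes (chromosome 16, 56989557 to 57083800), had 5.36, 4.35 and 5.07 FPKM in MRC5_Mo, 5.19, 4.66 and 4.45 in MRC5_CoH69 and 2.44, 2.15 and 2.18 in MRC5_CoH196 libraries. The libraries with H196 were all below the others, which overlapped. NLRC5 fell with H196 by 0.93 on the log2 scale (SE 0.0823, adjusted p = 2.3e-10) or by 47.5%. This was the largest fall of the 10 genes with edgeR, whereas on log2(FPKM + 1) NLRC5 (-0.86) fell less than TAP2 (-1.04). Its log2 fold change with H69 was -0.07 (adjusted p = 0.683).

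In H196 cells, no change of the 10 genes with MRC5 passed the test. The count was 0 of 10 with edgeR and with DESeq2, when 19.8% of 12806 genes passed with edgeR. The lowest adjusted p of the 10 with edgeR was that of TAPBP. TAPBP had 51.7, 56.1 and 50.6 FPKM in H196_Mo and 40.4, 45.7 and 43.9 in H196_Co libraries, all lower. Its log2 fold change was -0.16 (SE 0.0672, adjusted p = 0.1), and on log2(FPKM + 1) it was -0.28 and passed (limma, adjusted p = 0.0149). The libraries did not overlap for TAP2, TAPBP and ERAP2, all lower in H196_Co, when 37.2% of all genes did not overlap and 17% did so as lower. The log2 fold changes ran from -0.27 (ERAP2, SE 0.168) to 0.10 (PSMB8, SE 0.109), with a median of -0.08 against -0.001 over all genes. The 3 immunoproteasome ratios overlapped between H196_Co and H196_Mo.

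The change in MRC5 cells with H196 was also compared with the change in H196 cells with MRC5, as an interaction in a fit of all 15 libraries over the 13585 genes that are in both tables and passed the filter on the joined counts. The changes differed for 6 of the 10 genes, when 51.2% of all genes passed. B2M differed upward by 0.46 (SE 0.083, adjusted p = 4.13e-05), as 24.1% of all genes did, and the other 5 downward, as 27.1% did. TAP2 differed by -0.77 (adjusted p = 1.83e-08), NLRC5 by -0.84 (adjusted p = 0.0275), PSMB10 by -0.53 (adjusted p = 0.00251), PSMB8 by -0.42 (adjusted p = 0.00702) and ERAP1 by -0.31 (adjusted p = 0.0117). For TAP1, TAPBP, PSMB9 and ERAP2 the difference ran from -0.36 to 0.05 and did not pass.

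Between the lines grown alone, 9 of the 10 genes passed in the same fit of MRC5_Mo against H196_Mo, close to the 86.6% of all genes that did. B2M (log2 difference 2.77, adjusted p = 1.82e-25), PSMB8 (1.84, adjusted p = 1.91e-17), PSMB10 (0.83), TAPBP (0.41) and NLRC5 (5.08, adjusted p = 9.97e-23) were higher in MRC5_Mo, 5 of 10 against 42.6% of all genes. PSMB9 (-1.30, adjusted p = 4.31e-13), TAP2 (-0.70), ERAP1 (-0.66) and TAP1 (-0.17, adjusted p = 0.0116) were lower in MRC5_Mo, 4 of 10 against 44% of all genes, and ERAP2 (-0.28, adjusted p = 0.148) did not pass. The TMM factors of this fit were 0.921 to 0.923 in MRC5_Mo and 1.226 to 1.26 in H196_Mo libraries. These log2 differences sit above the ratio of the FPKM values, in part through these factors. For TAP1 mean FPKM was 21.7 in MRC5_Mo and 33.1 in H196_Mo, a wider gap than -0.17. The direction for TAPBP depended on the scale, since its mean FPKM was 49.2 in MRC5_Mo and 52.8 in H196_Mo. Cell line, culture medium and any difference between the sequencing of the lines cannot be told apart.

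The immunoproteasome subunits thus had different orders in the lines. PSMB9 had 36.2, 35.6 and 38.02 FPKM in H196_Mo and 38.3, 31.9 and 30.5 in H196_Co libraries, all above every MRC5 library. PSMB8 had 12.3, 13.01 and 14.8 in H196_Mo and 14.6, 12.4 and 13.1 in H196_Co libraries, all below every MRC5 library. PSMB10 had 20.04, 22.8 and 23.2 in H196_Mo and 21.6, 16.2 and 20.6 in H196_Co libraries. On the FPKM scale these lay between MRC5_Mo and MRC5_CoH196 and overlapped with the latter. The mean ratio of PSMB9 to PSMB6 was 0.0904 in H196_Mo against 0.0449 in MRC5_Mo, and that of PSMB8 to PSMB5 was 0.0508 against 0.154.

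On the FPKM scale, every H196 library was above every MRC5 library for TAP1, TAP2 and ERAP1, whereas for ERAP2 H196_Co libraries overlapped with MRC5 libraries. TAP1 had 30.9 to 34.6 FPKM in the H196 libraries, with H196_Mo and H196_Co overlapping. TAP2 had 35.4, 36.1 and 35.4 in H196_Mo and 28.7, 32.4 and 34.1 in H196_Co libraries, so that the mean of H196_Mo was above that of H196_Co, and the change did not pass (log2 fold change -0.08, adjusted p = 0.459). ERAP1 had 16.4 to 20.9, with overlapping groups, and ERAP2 had 0.94, 0.75 and 0.77 in H196_Mo and 0.69, 0.69 and 0.55 in H196_Co libraries. NLRC5 was low in H196 cells, at 14, 25 and 18 counts in H196_Mo and 18, 21 and 11 counts in H196_Co libraries. All lay above the 3 counts that a count of 0 allows by counting error alone, and the groups overlapped.

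In the order of mean FPKM over the 5 groups, MRC5_CoH196 was the lowest for TAP1, TAP2, TAPBP, PSMB9, PSMB10, ERAP1 and ERAP2, and the highest for B2M. MRC5_CoH69 and MRC5_Mo stood next to each other and overlapped for B2M, TAP2, PSMB8, NLRC5, ERAP1 and ERAP2. H196_Mo and H196_Co were next to each other and overlapped for B2M, TAP1, PSMB8, PSMB9, PSMB10, NLRC5 and ERAP1. MRC5_CoH196 overlapped with its neighbor for TAP1 (MRC5_Mo), TAPBP (H196_Co) and PSMB10 (H196_Co). The order depended on the scale for these genes. On mean log2 CPM scaled by TMM over all 15 libraries, MRC5_CoH196 was not the lowest for any of them. TAP1 stood at 5.855 in MRC5_CoH196 and 5.827 in MRC5_Mo. TAPBP stood at 7.268 in MRC5_CoH196 and 6.806 in H196_Co, and PSMB10 at 3.856 and 3.552.

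The other genes of the pathway were taken from lists chosen with earlier results of these data known, and are described by counts, to be read against the 37.2% of all genes that passed as higher and the 37.1% that passed as lower. In MRC5_CoH196 against MRC5_Mo, 6 of the 9 class I heavy chain and class I-like genes tested rose, and the other 3 did not pass. HLA-E (log2 fold change 0.84), HLA-B (0.83), FCGRT (0.78, the neonatal Fc receptor, which also binds B2M) and HLA-C (0.75) rose most, with edgeR adjusted p from 4.56e-15 (HLA-E) to 3.56e-13 (FCGRT). HLA genes are alike in sequence and their counts may share reads. The median of the list was 0.68 against -0.28 for the 10 loading genes. On log2(FPKM + 1) 5 of the heavy chain list were higher and 3 lower, MR1 having changed sign.

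The constitutive catalytic subunits and proteasome activators fell in MRC5_CoH196, 8 of 9 passing as lower, with PSME3 (-1.04), PSMB6 (-0.74) and PSME2 (-0.73) having the largest falls. PSME2 is a subunit of the interferon-inducible PA28 activator, and PSME3 forms the nuclear one. Of 9 other loading and ER quality control genes 5 fell, among them SEC61B (-0.73), the lectin chaperone CALR (-0.56) of the loading complex and UGGT1 (-0.49), which checks the folding of glycoproteins. On log2(FPKM + 1) all 9 passed as lower. Of 7 peptidases that trim or destroy peptides outside the ER, 2 rose and 5 fell, with LAP3 (-0.87), BLMH (-0.78), THOP1 (-0.76) and NPEPPS (0.61) changing most.

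Of the 12 factors of class I promoters tested, 4 rose and 5 fell in MRC5_CoH196 cells. NFKB1 (-1.16), IRF2 (0.99), RFXANK (-0.85) and RELA (0.71) changed most. Of 13 genes of interferon receptors and JAK-STAT signaling 7 rose and 5 fell, with SOCS1 (-2.33, a feedback inhibitor that interferon induces) and PTPN2 (-0.64, a phosphatase that dampens JAK-STAT signaling) at the low end and SOCS3 (0.52) and IFNGR2 (0.49) at the high end. On log2(FPKM + 1) these counts were 4 higher and 6 lower. Of 19 interferon-stimulated genes outside antigen presentation 9 rose and 4 fell, with OASL (3.12), IFI27 (1.49), IFIT2 (1.49) and MX1 (1.48) changing most and GBP2 (-1.44) falling most. The MRC5_CoH196 libraries were far apart for some of these genes, with 83 to 361 counts of IFIT2, 96 to 271 of MX1 and 18 to 71 of OASL, and 4 of the 9 that rose (IFIT2, IFIT1, IFIT3 and BST2, named after their values were seen) overlapped with MRC5_Mo. Of the class II genes, 5 of 10 were tested and HLA-DMA passed (0.74).

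With H69, 6.7% of all genes passed. Those of these lists were HLA-E (0.16, 1 of 9 tested) and IRF1 (0.45, 1 of 12). SOCS1 (-0.30) and JAK1 (0.15) passed of 13 genes, and GBP2 (0.41) and GBP1 (0.25) of 19. No gene of the other lists passed. IRF1 is an interferon-induced factor that binds the response element. With edgeR the levels of IRF1, GBP1 and GBP2 were higher with H69 and lower with H196, like PSMB9 and PSMB10 in their group means. This likeness was picked out after the values were seen. PSMB9 with H196 and PSMB10 with H69 did not pass the test. Most of the interferon-stimulated list differed, since 17 of 19 did not pass with H69, and with H196 9 rose and 4 fell. In H196_Co against H196_Mo, 19.8% of all genes passed with edgeR. Of 10 heavy chain and class I-like genes tested 4 rose, among them HLA-B (0.26), HLA-C (0.25) and HLA-E (0.22), and HFE (-0.53) fell. PSME2 (-0.34, 1 of 9 tested), SPPL2A (-0.40, 1 of 9), LNPEP (-0.24, 1 of 7) and IFNAR1 (-0.25, 1 of 13) fell. Of 12 interferon-stimulated genes IFIT2 (-0.65) and IFI35 (-0.49) fell. Of 12 promoter factors ATF1 (-0.28) and NFYA (-0.23) fell, and RELA (0.33) rose. On log2(FPKM + 1) no heavy chain gene passed as higher.

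**Figure D5:**
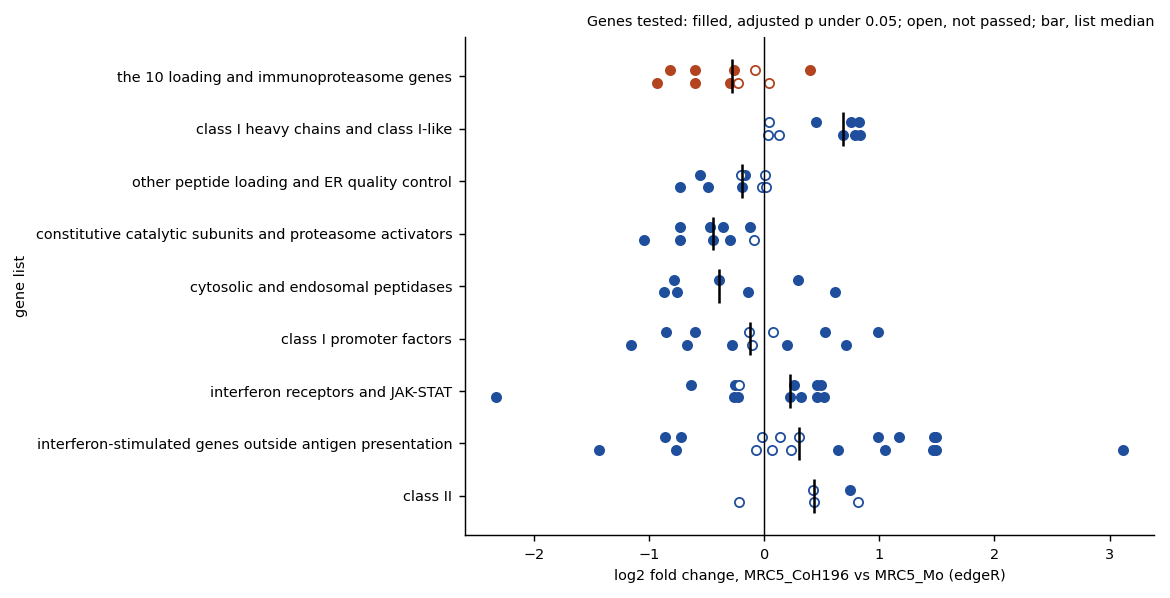
Log2 fold changes of MRC5_CoH196 against MRC5_Mo for the 10 genes (red) and for the genes tested of 8 related lists (blue). Filled points passed the test and black bars are list medians. The heavy chain list (median 0.68) lies to the right of 0, and the 10 genes (median -0.28) and the constitutive subunits and activators (median -0.44) lie mostly to the left.

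Other RNA moved in the same libraries. The summed level of 8 fibroblast markers, most of it collagen RNA, was 26870 to 29920 CPM in MRC5_Mo, 30770 to 31790 in MRC5_CoH69 and 12800 to 13560 in MRC5_CoH196 libraries, all 8 being listed. The markers did not move alike, since mean FPKM in MRC5_Mo and MRC5_CoH196 was 2628 and 785 for COL1A1, 1974 and 1191 for COL1A2 and 259.9 and 54.0 for COL3A1, but 60.7 and 85.5 for PDGFRB, 42.6 and 48.9 for PDGFRA, 86.1 and 94.4 for LUM, 202 and 198 for DCN and 154 and 131 for THY1. In H196 libraries it was at most 3.09 CPM. NE markers summed to at most 2.16 CPM in MRC5 and to 57.1 to 67 CPM in H196 libraries. The non-NE markers REST and YAP1 did not set H196 apart from fibroblasts, with 192 to 275 CPM in H196 and 329 to 381.5 CPM in MRC5 libraries. The summed level of the immune markers PTPRC, CD14, CD68 and ITGAM was 73.1 to 81.8 CPM in MRC5_Mo, 57.7 to 70.4 in MRC5_CoH69 and 106.5 to 115.4 in MRC5_CoH196, where PTPRC was at 0. This sum was nearly all CD68 (1361 to 1537 counts in MRC5_Mo and 1963 to 2208 in MRC5_CoH196), and PTPRC, CD14 and ITGAM had at most 10 counts in any MRC5 library. CD3E was not analysed here. The 99 genes with at least 20 CPM in every H196_Mo and under 0.5 CPM in every MRC5_Mo library summed to 23.9 to 62.4 CPM in MRC5_CoH196, or 0.298% to 0.777% of their level in H196_Mo, against 9.49 to 10.4 CPM in MRC5_Mo and 8.66 to 10.7 CPM in MRC5_CoH69. The part of these in the results was not tested.

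The genes whose pattern over the 5 groups was most like that of B2M, by the root mean square difference of centred mean log2 CPM over 13585 genes, were FAT1 (0.0349), C12orf75 (0.0491) and VWCE (0.0665). For TAP1 they were PNPLA8 (0.0377), IMPACT (0.0459) and PPCS (0.0501), and for PSMB9 they were TRIM37 (0.0819), LIPT1 (0.0877) and ZNF852 (0.0883).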

How the data were processed

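RNA of MRC5 and H196 cells was sequenced in 15 libraries by the authors, who filtered reads with SOAPnuke. HISAT placed the reads on GRCh38.p13 and Bowtie2 on gene sequences. The tool that counted reads is not given in the paper's text. The submitters' processing notes name HISAT2 2.1.0, Bowtie2 2.3.4.3 and RSEM 1.3.1. The deposited expected counts are estimated reads per gene, not normalized, and 93.7% (MRC5) and 92.1% (H196) of them are whole (tolerance 1e-09). FPKM values are as deposited, 1 per gene and library. The other per-library columns (TPM and normalized counts, 18 for MRC5 and 12 for H196), the authors' own comparisons (fold changes on a log2 scale with p- and q-values) and a second copy of each table were not used here.

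Expected counts were rounded, filtered with filterByExpr, scaled by TMM and tested with edgeR 4.0.16 in R 4.3.3 (quasi-likelihood, two-sided, Benjamini-Hochberg over all genes), with the 9 MRC5 libraries, the 6 H196 libraries, or all 15 over genes in both tables. SE was taken as the fold change (log2) over the root of the F statistic. DESeq2 1.42.0 and limma 3.58.1 served as alternatives, beside other scalings, filters, a replicate block and each library left out. Ratios used FPKM + 0.1 on the log2 scale. edgeR and DESeq2 were tested on simulated counts. The genes named are the 10 members, PSMB5, PSMB6 and PSMB7, up to 4 genes of a list per comparison that passed with the largest absolute change, and the 3 genes nearest in pattern to B2M, TAP1 and PSMB9. MR1, IRF1, GBP1, GBP2, IFIT1, IFIT3 and BST2 in MRC5_CoH196 and HLA-E in H196_Co fall outside that rule and were named after their values were seen. Promoter windows came from a RefSeq table (GRCh38.p14). Members and lists were chosen with earlier results of these data known. Some genes of the lists are not reported here.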

Additional observations from a re-analysis of the deposited data

Results flagged for a closer look

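6 of the 10 genes changed differently in MRC5 cells grown with H196 than in H196 cells grown with MRC5, by the interaction in edgeR over all 15 libraries. The change in MRC5_CoH196 minus that in H196_Co was 0.46 for B2M, -0.77 for TAP2, -0.42 for PSMB8, -0.53 for PSMB10, -0.84 for NLRC5 and -0.31 for ERAP1. 51.2% of all genes tested passed as well. Fewer than 6 of the 10 genes passed, down to 4, when any of 8 of the 12 libraries of these groups was left out. NLRC5 rests on 11 to 25 counts per H196 library and lost the call without any of 5 libraries (MRC5_CoH196 replicate 2, H196_Mo replicates 1 and 3, H196_Co replicates 1 and 2), its adjusted p of 0.0275 rising to as much as 0.154. ERAP1 lost it without any of 3 (MRC5_Mo replicate 1, MRC5_CoH196 replicates 1 and 3, adjusted p up to 0.122) and PSMB8 without MRC5_CoH196 replicate 3 (adjusted p = 0.0638). B2M, TAP2 and PSMB10 kept it in all 12 cases.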

How the results depend on the processing

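Alternatives were other scalings, no filter on low counts, DESeq2, limma on log2(FPKM + 1) or log2(FPKM + 0.1), the DEG limit, a replicate block and leaving out each library. Of the values of the 10 genes under alternatives that kept all libraries, 394 kept their direction and their side of the threshold. Of the rest 6 changed direction, 4 lost a call and 6 gained one. With a library left out, 388 kept both, 10 changed direction, 19 lost a call and 3 gained one. With the DEG limit the number of the 10 genes was 4 (MRC5_CoH196 against MRC5_Mo) and 0 (MRC5_CoH69 against MRC5_Mo). The 4 became 3 with DESeq2 or limma on log2(FPKM + 1), and 2 to 4 with a library left out. Between the co-cultures it was 5, and 4 with other size factors, DESeq2, at least 10 counts in every library or limma on log2(FPKM + 1). For the interaction it was 2, and 1 without MRC5_CoH196 replicate 2, H196_Mo replicate 1 or 3, or H196_Co replicate 1. For MRC5_CoH69 the number that passed at the adjusted p alone was 1 with DESeq2 and with limma at either pseudocount, and 0 to 3 with a library left out, when that number was 6 to 8 for MRC5_CoH196 and 4 to 6 for the interaction. For MRC5_CoH196 it was 9 and 10 with limma, and for H196_Co 1. Directions turned for TAP1 with H196 (-0.126 and -0.132 with limma, -0.00302 to 0.0766 with a library left out) and in H196_Co for ERAP1 (-0.0547 and -0.0576 with limma, -0.0604 to 0.0596) and PSMB8 (-0.00104 and -0.00105 with limma), none of which had passed with edgeR (TAP1 had an adjusted p of 0.0493 with limma at the smaller pseudocount). With a library left out, NLRC5 (-0.32 to 0.11), PSMB10 (-0.18 to 0.0252) and PSMB9 (-0.16 to 0.00613) in H196_Co and TAP1 in the interaction (-0.0878 to 0.0369) also turned, as did the ratios of PSMB8 to PSMB5 between the co-cultures (-0.0333 to 0.109) and of PSMB10 to PSMB7 in H196_Co (-0.169 to 0.0083). All genes that passed with H69 numbered 384 to 1016 with a library left out and 404 or 386 with limma, against 859. In H196_Co they numbered 1559 without H196_Co replicate 3 and 1656 without H196_Mo replicate 3, against 2538.

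Same-numbered libraries of different groups correlated from -0.116 to 0.081 in MRC5 and from -0.151 to 0.0334 in H196. Differently numbered ones correlated from -0.106 to 0.166 and from -0.145 to 0.196. With 3 libraries per group these values cannot show whether same-numbered libraries shared a culture or a batch. With a replicate block, 7, 2, 10, 0, 9 and 6 of the 10 genes passed in the 6 comparisons, as without it.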
